A study of Mus musculus with 3 samples.

Results

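Natural killer (NK) cells of the blood were examined in mice 3 days after a dorsal burn with transection of the Achilles tendon (burn/tenotomy), an injury that leads to heterotopic ossification. The cells were selected on their own transcripts in an unsorted blood library. A blood barcode was kept when it held at least 200 genes and at most 20% mitochondrial UMIs (unique molecular identifiers, each counting 1 captured transcript). It was taken as an NK cell when Klre1, Klrb1c and Ncr1 together gave at least 3 UMIs, Cd3d, Cd3e and Cd3g together at most 1, Cd79a none, and S100a8 with S100a9 less than 5% of its UMIs. This rule found 137 cells among 2184 filtered blood cells and 9002 filtered cells of the series.

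The series holds 3 libraries from mice 10 weeks of age, described in the methods as male C57BL/6J: bone marrow flushed from the femurs, mononucleated blood cells from a Ficoll gradient, and the enzymatically digested tendon injury site. Each site has 1 library, all 3 from injured animals, and how many mice went into a library is not stated in the labels or methods. No test between sites or cell types was therefore possible, and all intervals below are 95% intervals that cover counting error only. The blood library held 2241 barcodes and 22542581 UMIs, the bone marrow library 1855 barcodes and 49580625 UMIs, and the tendon library 5629 barcodes and 90621052 UMIs. Blood shared 2 barcode sequences with bone marrow and 6 with the tendon. One of the 6 belonged to an NK cell, with 6186 UMIs and 93 Gzma UMIs in blood; the same barcode in the tendon library held 24634 UMIs and 0 Gzma UMIs. Genes of the T cell receptor constant chains and several immunoglobulin genes were not analysed here.

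NK cells are innate lymphocytes that kill infected, transformed or stressed cells by releasing perforin and granzymes, and that secrete interferon-γ and chemokines. They carry germline-encoded activating and inhibitory receptors, many of them lectin-like proteins encoded side by side in the natural killer gene complex, and no rearranged antigen receptor. In mice they mature from CD27-positive to CD11b- and KLRG1-positive cells under the factors Eomes, T-bet (Tbx21) and Zeb2, and they circulate in blood and enter injured tissue.

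Short stretches upstream of the genes of this program were read from RefSeq (GRCm38.p6). The core letters bound by RUNX factors, TGTGGTT on either strand, were found within the 250 bases before a start in 13 of 46 genes with a promoter entry, of 57 genes in the gate, cytolytic, activating receptor and inhibitory receptor lists. The same letters stood in 5.08% of all genes with a promoter entry and in 4.40% of all promoter windows. Of the other motifs searched, the short T-box letters AGGTGT stood in 5 of the 46 genes against 13.6% of all genes. The longer AGGTGTGA, which contains the short form, stood in 2 against 1.30%, and the ETS letters CAGGAAGT in 3 against 3.13%. A match describes letters, not a bound site. The 13 include Klre1 and Ncr1, which the rule itself used to choose the cells, and no count without the rule's genes was made. Not all 13 genes with the RUNX letters were high in NK cells. They include Gzmc and Havcr2, with 1 and 7 UMIs there, and Tigit and Cd96, whose values are given below. Srgn and Rab27a are also among the 13, and are not among the 11 cytolytic genes counted below as higher in NK than in T cells. The windows of 4 genes that hold the RUNX letters are shown because they belong to an identifying receptor (Ncr1, + strand, chr7:4337474-4337723), the NKG2D receptor (Klrk1, − strand, chr6:129623865-129624114) and the granzymes (Gzma, − strand, chr13:113100982-113101231, and Gzmb, − strand, chr14:56262335-56262584). Each is written 5′ to 3′ on its gene's strand, with the RUNX letters or their reverse complement in capitals.
Ncr1: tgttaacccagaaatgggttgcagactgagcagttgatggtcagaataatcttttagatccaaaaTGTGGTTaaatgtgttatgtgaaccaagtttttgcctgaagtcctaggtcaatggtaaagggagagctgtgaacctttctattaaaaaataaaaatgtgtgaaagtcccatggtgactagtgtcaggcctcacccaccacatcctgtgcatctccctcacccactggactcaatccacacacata
Klrk1: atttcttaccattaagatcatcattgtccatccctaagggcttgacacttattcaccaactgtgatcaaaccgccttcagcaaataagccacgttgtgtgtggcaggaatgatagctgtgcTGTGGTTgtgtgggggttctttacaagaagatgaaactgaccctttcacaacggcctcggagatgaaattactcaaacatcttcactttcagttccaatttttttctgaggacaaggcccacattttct
Gzma: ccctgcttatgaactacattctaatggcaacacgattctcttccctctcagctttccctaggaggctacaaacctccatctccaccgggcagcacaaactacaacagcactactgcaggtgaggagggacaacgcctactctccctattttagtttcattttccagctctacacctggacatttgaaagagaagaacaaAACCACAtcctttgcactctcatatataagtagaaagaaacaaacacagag
Gzmb: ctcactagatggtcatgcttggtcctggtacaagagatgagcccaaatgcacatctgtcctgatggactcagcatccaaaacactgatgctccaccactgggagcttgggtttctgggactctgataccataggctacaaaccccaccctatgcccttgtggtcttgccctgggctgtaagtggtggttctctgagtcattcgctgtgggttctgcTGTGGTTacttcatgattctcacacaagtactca
Counted from the annotated start, the capitals begin at position -185 in Ncr1, -129 in Klrk1, -51 in Gzma and -34 in Gzmb.

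NK cells made up 6.27% of the filtered blood cells (exact binomial interval 5.29 to 7.37), beside 16.3% CD8 T cells, 15.3% CD8-negative T cells and 17.0% B cells chosen by their own transcripts. Few cells lay near the receptor limit. These counts use the rule's own genes, so they describe the selection and do not support it. Of the filtered blood cells, 1976 had 0 UMIs of the 3 receptors, 18 had 1, 9 had 2 and 181 had at least 3. Of the 181, 40 had more than 1 Cd3 UMI. All 9 cells with 2 receptor UMIs had more than 1 Cd3 UMI. Just inside the limit were 1 member with 3 receptor UMIs and 61 Gzma UMIs, and 1 with 4 receptor UMIs and 6 Gzma UMIs. The other 135 members had at least 8, and the median member had 23. Just outside, 5 cells that met every other criterion had 1 receptor UMI, 4 of them with 0 Gzma UMIs and 1 with 23 Gzma UMIs among 1036 UMIs. All 3 receptors were detected in 132 of the 137 cells, and 132 had no Cd3 UMI. Replacing the 3 receptors by Gzma, Eomes and Prf1 in the same rule chose 136 blood cells, of which 135 were among the 137.

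The label was checked against defining markers. Gzma, which encodes granzyme A and was not part of the rule, was found in 98.5% of the NK cells, and Eomes in 65.0%. The T cell genes Cd4, Cd8a, Cd8b1 and Cd5, which the rule does not use, and the chemokine receptor gene Ccr7 had 0 UMIs in 932955 NK UMIs. The type 1 innate lymphoid genes Cxcr6 and Zfp683 had 0 UMIs as well, Itga1 had 1, and the interleukin-7 receptor gene Il7r had 15 in 2.92% of cells. The 8 T cell markers together stood at 35.4 UMIs per 1000000 UMIs (CPM) against 2624 CPM in T cells, but 3 of them are the Cd3 genes that the rule limits and that defined the T cells. The other 5 stood at 30.01 CPM in NK cells, all from Cd28 with 28 UMIs, against 939 CPM in T cells. The 4 B cell markers stood at 3.22 CPM and the 5 platelet markers at 5.36 CPM. The 8 neutrophil markers stood at 199 CPM in NK cells, 136 CPM in T cells and 244 CPM in B cells. S100a8 was their most abundant gene in NK cells with 77 UMIs. The rule itself limits S100a8 with S100a9 and allows no Cd79a UMI, so low values of these genes are no check of the label.

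Monocyte and class II genes were also found. The 8 monocyte markers, all of them detected, stood at 1631 CPM in NK, 565 CPM in T and 2383 CPM in B cells, and Lyz2 was the most abundant with 543 UMIs. Ccr2 and Ly6c2 of that list are also known from NK cells. The 9 dendritic markers stood at 654 CPM with 4 at 0 and Cd74 most abundant, and the 5 erythroid markers at 2.14 CPM. Most of the Lyz2 and Cd74 UMIs lay in 2 cells. One cell of 23218 UMIs held 126 UMIs of Lyz2, Csf1r, Fn1, Ms4a6c and Ctss and 586 UMIs of H2-Aa, H2-Ab1 and Cd74. The other, of 20643 UMIs, held 534 and 12. No other NK cell had more than 4 UMIs of the first group or more than 2 of the second. Lyz2, which encodes a lysozyme of myeloid cells, stood at 582 CPM over all 137 cells and 32.6 CPM over the other 135, and Cd74 at 384 and 6.75 CPM. Gzma stood at 12228 CPM with both cells and 12703 CPM without them. Both cells were kept, because the rule keeps them.

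Genes of the killing machinery and the chemokine gene Ccl5 stood far above their T cell level. Gzma stood at 12228 CPM (Poisson interval 12004 to 12454), from 0 to 32390 CPM across single cells with a median of 12755 CPM. It stood at 70.6 CPM in CD8 T cells, 1.13 CPM in CD8-negative T cells and 1.28 CPM in B cells. Its log2 ratio to all T cells was 8.21 (8.03 to 8.39). Ccl5, a chemokine that draws T cells and monocytes, was the highest chemokine gene at 15669 CPM and was detected in all 137 cells, with a log2 ratio to T cells of 4.73 (4.68 to 4.78). Nkg7, a granule membrane protein needed for degranulation, was also present in every cell at 3497 CPM. Gzmb stood at 763 CPM (708 to 821) in 90.5% of cells, and Prf1, which encodes perforin, at 416 CPM (375 to 459) in 85.4%. The granzymes Gzmc and Gzmk gave 1 UMI each, and Gzmm gave 10. Serpinb9, an inhibitor of granzyme B that protects the killer cell, stood at 390 CPM with a log2 ratio of 5.43 (5.02 to 5.86), and the death ligand gene Fasl at 122 CPM with 5.27 (4.57 to 6.03). Of 18 cytolytic genes, 14 reached 100 UMIs over NK and T cells together. Of these, 11 were higher in NK cells by more than 1 on the log2 scale and 0 were lower, beside 16.1% higher and 6.14% lower among all genes compared. Scaled without ribosomal and mitochondrial genes, 9 were higher.

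**Figure D1:**
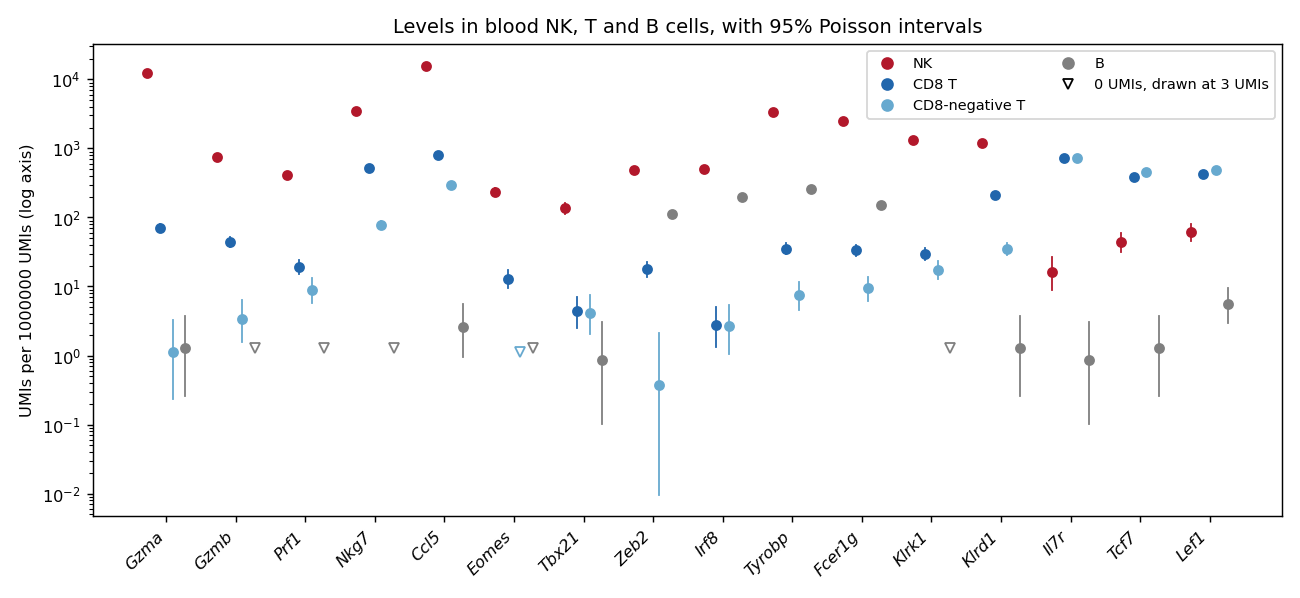
Level of 16 genes in blood NK, CD8 T, CD8-negative T and B cells, in UMIs per 1000000 UMIs on a log axis; points are sums over all cells of a type, lines are 95% Poisson intervals, and open triangles are genes with 0 UMIs drawn at 3 UMIs. Gzma lies at 12228 CPM in NK cells and 70.6 CPM in CD8 T cells, and Il7r, Tcf7 and Lef1 lie lower in NK than in T cells.

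The background to this and the following counts was as follows. Of 5453 genes outside the rule with at least 100 UMIs over both cell types, 878 (16.1%) were higher in NK cells by more than 1 on the log2 scale and 335 (6.14%) were lower, and the median log2 ratio over all of them was 0.43. The rule itself separated NK from T cells, so the counts describe the contrast and support nothing. Ribosomal protein genes took 20.1% of NK UMIs and 38.7% of T cell UMIs. Scaled without ribosomal and mitochondrial genes, the median moved to 0.00, and 365 genes were higher and 595 lower. Each ratio of NK to T cells may be read against the median of 0.43. The second scaling lowers every log2 ratio by the same 0.43, so only a ratio between 0 and 0.43 can change direction. Of 71 such ratios recomputed in this way, those of Lck and Clec2d did so. The counts of gene lists moved by at most 2 genes in either direction. Ratios along the maturation range and between sites were not rescaled. Whether the ribosomal difference has a part in any single ratio was not tested.

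The 10 genes with the highest ratio outside the rule were Klra9, Klra8, Khdc1a, Klrb1a, Klra4, Cma1, Klri2, Lat2, Gzma and Styk1. Klra8, Cma1 and Styk1 had 0 UMIs in 6297432 T cell UMIs, so their ratios are lower bounds set by 3 counts over the T cells: at least 10.95, 9.26 and 8.02 on the log2 scale. Cma1 encodes a chymase better known from mast cells and was present in 68.6% of NK cells at 293 CPM. The 10 lowest were Dapl1, Cd8b1, Ccr7, Gm8369, Igfbp4, Trib2, Ly6a, Tesc, Nsg2 and Actn1. Dapl1 stood at 1.07 CPM in NK cells and 359 CPM in T cells. Ccr7, which guides lymphocytes to lymph nodes, had 0 UMIs in NK cells and was found in 81.9% of T cells, a log2 ratio of at most -6.49.

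Receptor genes outside the rule differed in how many NK cells held them. Klrk1, which encodes the activating receptor NKG2D, stood at 1334 CPM in 99.3% of cells, with a log2 ratio to T cells of 5.78 (5.54 to 6.03). Klrd1 (CD94), the partner of the NKG2 chains, stood at 1203 CPM in 99.3% of cells and, unlike Klrk1, at 213 CPM in CD8 T cells. Klrc2 was found in 94.9% of cells at 546 CPM. Cd244 and Slamf7, which encode receptors of the SLAM family, stood at 158 and 124 CPM, and another member, Slamf6, was lower in NK than in T cells at 7.50 against 211 CPM. Of the checkpoint receptor genes, Pdcd1 had 0 UMIs, Tigit 2 and Lag3 3. Of 13 activating receptor genes tested, 10 were higher and 1 (Slamf6) lower than in T cells. Of 7 inhibitory receptor genes tested, 6 were higher and 0 lower, and the seventh was Cd96 at 32.2 CPM in NK and 53.0 CPM in T cells, within 1 on the log2 scale but past it as lower when scaled without ribosomal and mitochondrial genes. The list medians were 5.78 and 5.65.

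Many of the lectin-like receptor genes sit together on chromosome 6, while Cd244, Slamf6, Slamf7, Cd96 and Ncr1 lie elsewhere. Between Klrb1a and Klra1 on chromosome 6 (chr6:128609227-130386874 in GRCm38, 1778 kb) the files list 48 genes, 12 of them with no UMI in NK cells. Together they gave 10721 CPM in NK cells, or 1.07% of all NK transcripts, and 643 CPM in T cells. Without Klre1 and Klrb1c, the 2 genes there that chose the cells, the sums were 8321 and 639 CPM. Of the 16 genes there that could be compared with T cells and were not in the rule, 12 were higher in NK cells by more than 1 on the log2 scale and 1 lower. The lower one was Cd69, an early activation marker that also retains lymphocytes in tissue, at 54.7 CPM in NK and 147 CPM in T cells, a log2 ratio of -1.43 (-1.86 to -1.02). Clec2d, whose product is bound by the NKR-P1 receptors encoded by the Klrb1 genes, was within 1 on the log2 scale at 0.33 (0.13 to 0.52), and its direction flipped when ribosomal and mitochondrial genes were left out of the scaling. Levels within the complex ran from 1442 CPM for Klre1, a gene of the rule, to 0 UMIs for the lectin genes Clec9a and Clec1b.

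**Figure D2:**
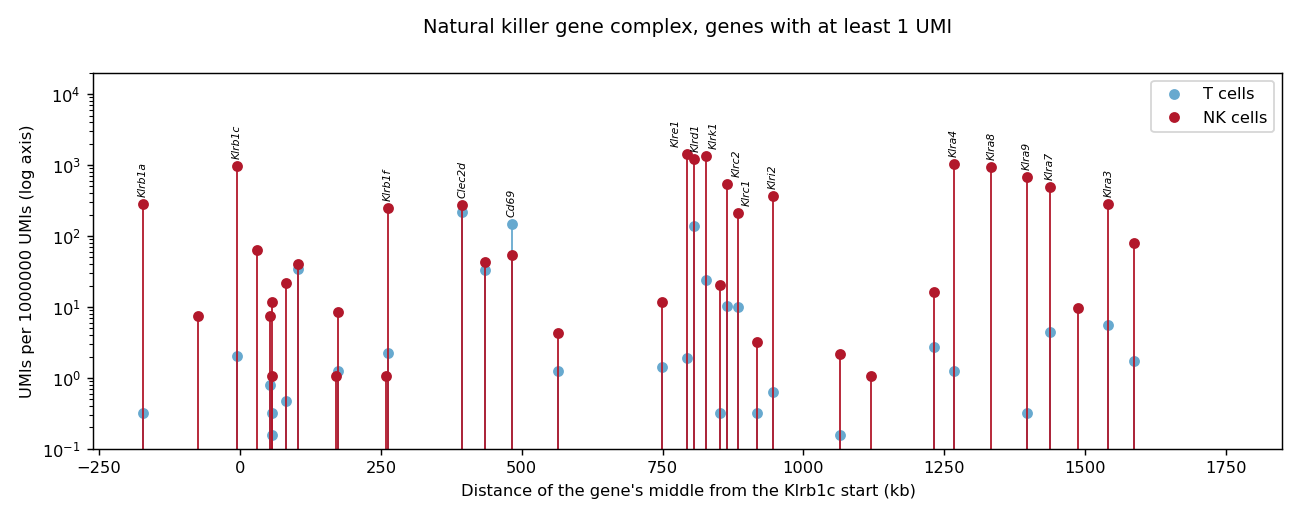
Genes of the natural killer gene complex by the distance of their middle from the Klrb1c start in kb (x axis) and their level in UMIs per 1000000 UMIs on a log axis (y axis), for blood NK cells (red) and T cells (blue); genes with 0 UMIs have no point. Klre1, Klrd1 and Klrk1 form one high group near the centre and the Ly49 genes Klra4, Klra8, Klra9, Klra7 and Klra3 a second, and Cd69 is the labelled gene that lies higher in T cells.

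NK cells differed in which Ly49 genes were detected. The Ly49 receptors bind MHC class I or viral ligands, and in mice each NK cell is known to express a subset of them. Klra8, which encodes the activating receptor Ly49H, was found in 96 of 137 cells (70.1%, interval 61.7 to 77.6). Klra7 was found in 88 cells (64.2%), Klra9 in 86 (62.8%), and Klra4, which encodes the activating receptor Ly49D, in 77 (56.2%, 47.5 to 64.7). Klra3 was found in 43 (31.4%) and Klra1 in 16 (11.7%). These shares can be set beside the levels. Klra4 had 0 UMIs in 60 cells and a median of 10 UMIs, with a highest value of 59, in the 77 positive cells, of which 2 had a single UMI. Klrd1, which is outside the rule, gave 1122 UMIs against 956 for Klra4 and was missing from 1 cell. After every cell was thinned to 2000 UMIs, Klra4 remained detected in 54.4% of cells and Klra8 in 59.6%. The thinned share of Klra4 was 0.282% in CD8 T cells, which had been limited to fewer than 3 UMIs of the rule's receptors.

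Counting the 6 Ly49 genes with at least 50 UMIs, the median cell had 3. No gene was seen in 6 cells, 10 cells had 1, 31 had 2, 36 had 3, 45 had 4, 8 had 5 and 1 had all 6. The cells with none were not shallow, with a median of 7056 UMIs. Of 64 possible combinations, 38 were seen, and the most frequent, Klra4 with Klra7, Klra8 and Klra9, was seen in 15 cells. Near-identical 3′ ends could blur these counts. Of the 90-base windows in the last 500 bases of the GENCODE transcripts, 0% of those of Klra1, Klra4, Klra7 and Klra8 were found in another Ly49 gene. For Klra9 the share was 4.74% (shared with Klra8), for Klra3 5.15% (shared with Klra10) and for Klra10 10.5%, so reads could be split between those pairs.

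Klrc1, which encodes the inhibitory receptor NKG2A, was found in 60 cells (43.8%), and its detection differed between cells with and without Klra4. It had a UMI in 19 of the 77 cells with Klra4 (24.7%) and in 41 of the 60 cells without (68.3%). Its level was 105 CPM in the first and 372 CPM in the second. The median depth of the 2 sets of cells was 6189 and 5849 UMIs. After thinning to 2000 UMIs the shares were 13.5% and 45.2%. As a description over the 137 cells, which share 1 library, the correlation of the 2 detections was -0.44, the lowest of the 21 pairs among the 6 Ly49 genes and Klrc1. The next lowest was -0.23, between Klra8 and Klrc1, and the highest 0.26, between Klra4 and Klra7. Depth and free RNA could act on both genes of a pair, and the part of free RNA was not tested. The cells with Klrc1 had a median of 2 Ly49 genes and 2723 CPM of Ly49 transcripts, and the cells without had 4 and 4183 CPM.

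**Figure D3:**
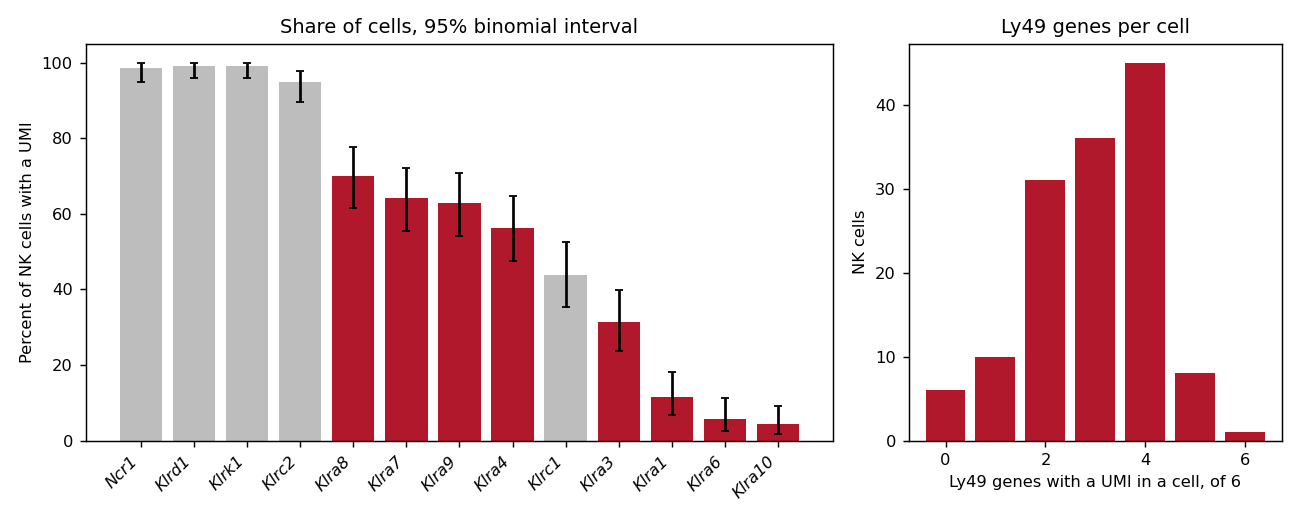
Left, percent of the 137 blood NK cells with at least 1 UMI of each receptor gene (bars) with exact 95% binomial intervals, Ly49 genes in red and other receptors in grey; right, number of NK cells by how many of 6 Ly49 genes had a UMI. Klrd1 and Klrk1 reach nearly every cell, as does Ncr1, which is part of the rule, Klra8 70.1% and Klra1 11.7%, and most cells hold 2 to 4 Ly49 genes.

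The adaptors of NK receptors were high and those of the T cell receptor low. Tyrobp (DAP12), the adaptor of the activating Ly49 receptors, stood at 3342 CPM and was detected in all cells, and Fcer1g, the adaptor of NKp46 and CD16, at 2493 CPM, also in all cells. Their log2 ratios to T cells were 7.14 (6.90 to 7.39) and 6.74 (6.50 to 6.99). Lat2 stood at 160 CPM against 0.476 CPM in T cells. Its relative Lat, the linker of the T cell receptor, showed the opposite order at 41.8 against 208 CPM. Lck and Cd247, used by both cell types, differed by 0.19 and -0.19 on the log2 scale, and Lck changed direction when ribosomal and mitochondrial genes were left out. Of 14 signalling genes tested, 6 were higher and 2 lower, with a median log2 ratio of 0.77 beside 0.43 over all genes.

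Transcription factors divided into higher and lower groups. Eomes stood at 232 CPM (202 to 264), against 12.9 CPM in CD8 T cells and 0 UMIs in CD8-negative T and B cells. Tbx21 stood at 135 CPM and Zeb2 at 482 CPM, with log2 ratios to T cells of 4.98 (4.37 to 5.63) and 5.52 (5.15 to 5.92). Irf8, better known from monocytes, dendritic cells and B cells, stood at 503 CPM in 80.3% of NK cells, 2.70 CPM in T cells and 200 CPM in B cells. Id2, which restrains the E proteins of T and B cell development, stood at 838 CPM. Tcf7 and Lef1, factors of naive T cells, were lower in NK cells at 43.9 and 61.1 CPM against 420 and 455 CPM. Klf2, which maintains circulation of lymphocytes through S1pr1, stood at 1021 CPM in NK and 1037 CPM in T cells, with no stable direction across alternatives. Of 16 factors tested, 8 were higher (Eomes, Tbx21, Id2, Zeb2, Runx3, Ikzf3, Irf8 and Gata3) and 5 lower (Ikzf2, Tcf7, Lef1, Bach2 and Rora). Runx3 and Gata3, at 1.05 and 1.08, passed the limit by little, and without ribosomal and mitochondrial genes in the scaling they stood within it.

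Homing and cytokine receptor genes differed between NK and T cells in both directions. S1pr5, the receptor by which NK cells leave marrow and lymph nodes, stood at 150 CPM against 1.27 CPM in T cells, while S1pr1, which serves T cells in the same way, stood at 46.1 against 336 CPM. The integrin genes Itgam, Itgb2 and Itgb1 were higher in NK cells with log2 ratios of 5.65 (4.94 to 6.45), 2.66 (2.48 to 2.83) and 2.93 (2.74 to 3.11). Of 19 homing genes tested, 11 were higher and 3 (Cxcr6, Ccr7 and S1pr1) lower, with a median of 1.69. Il2rb, the β chain of the interleukin-2 and interleukin-15 receptors, stood at 366 CPM against 39.7 CPM, and Il18rap at 289 against 14.3 CPM, while Il7r stood at 16.1 against 720 CPM. Of 16 cytokine receptor genes tested, 7 were higher and 6 lower. Of the cytokines, Ccl3 and Ccl4 stood at 125 and 285 CPM, in 32.1% and 51.1% of cells. Ifng, which encodes interferon-γ, had 41 UMIs in 21.9% of cells. Tnf had 1 UMI, and Il10 had 0.

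Interferon response genes were not higher in NK than in T cells. Of 11 interferon-induced genes tested, 0 were higher than in T cells and 7 were lower (among them Isg15, Ifit1, Ifit3, Ifi27l2a, Bst2 and Gbp2), with a median log2 ratio of -1.24. Ifi27l2a stood at 66.5 against 749 CPM. Its NK UMIs were uneven, with 0, 61 and 1 in the low, middle and high maturation groups described below. The middle group holds 1 of the 2 cells with monocyte or class II UMIs. How many of the 61 lay in that cell is not reported here. Of 7 early activation genes tested, 1 (Ier2) was higher and 2 (Jun and Cd69) lower. Mki67, a marker of dividing cells, had 33 UMIs in 5 of the 137 cells, and 1 cell held 21 of them. With no uninjured library here, these levels cannot be compared with those of NK cells at rest.

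The NK cells were also set against 39 blood cells that met every criterion except the Cd3 limit, with at least 3 receptor UMIs and more than 1 Cd3 UMI. These had a median of 8 receptor and 17 Cd3 UMIs. Klrb1c was seen in 34 of them and Ncr1 in 11, and 26 had no Gzma. Gzma stood at 1791 CPM (1656 to 1935), Tyrobp at 750 CPM and Il7r at 467 CPM, against 12228, 3342 and 16.1 CPM in NK cells. Cxcr6 stood at 250 CPM in 20 of the 39 and at 0 UMIs in NK cells. These cells were not given a cell type name.

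Within the NK cells, a maturation range was drawn from 2 gene lists. The mature list was Klrg1, Zeb2, S1pr5, Itgam, Cx3cr1, Prdm1, Cma1, Ly6c2, Gzmb, Prf1 and Spn, and the immature list Cd27, Ltb, Emb, Cd7, Xcl1, Kit, Il7r, Tcf7, Ctla2a, Thy1 and Cxcr3. Of all UMIs of both lists, 75.8% were of the mature list (74.4 to 77.1). The mature share of single cells ran from 5.88% to 100% with a median of 82.3%, in 136 cells with at least 5 such UMIs, and 22 cells were below 50%. The cells were ranked into 3 groups of 46, 45 and 45, called low, middle and high, with limits at 70.0% and 90.1%. The groups are ranges, not types. Within 5 percentage points of the limits lay 15 and 40 cells. The groups had median depths of 7056, 5435 and 5814 UMIs, and ribosomal protein genes took 23.6%, 18.4% and 17.6% of their UMIs. The part of depth and ribosomal content in the values below was not tested.

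Few genes outside both lists differed by more than 1 on the log2 scale along the range. Of 748 such genes with at least 100 UMIs, 11 (1.47%) were higher in the high than in the low group by that much, and 8 (1.07%) were lower, and the median log2 ratio was 0.08. The ranking and these levels come from the same cells of 1 library, so they are descriptions. Irf8 was one of the most different, at 272, 533 and 769 CPM from low to high, a log2 ratio of 1.50 (1.14 to 1.86). Klra3 stood at 167, 261 and 470 CPM, a ratio of 1.49 (1.04 to 1.96), and Klra9 at 479, 644 and 982 CPM, a ratio of 1.04 (0.75 to 1.32). Klra4 and Klra8 differed by 0.12 and 0.18, so the Ly49 genes were not alike in this. Gzma stood at 8579, 12330 and 16666 CPM, a ratio of 0.96 (0.89 to 1.02), and Ccl5 at 12677, 14528 and 20414 CPM, a ratio of 0.69 (0.63 to 0.74). Eomes went the other way at 269, 227 and 189 CPM, a ratio of -0.51 (-1.03 to -0.01). Ccr2, the receptor of monocyte chemokines, stood at 479, 248 and 139 CPM, a ratio of -1.79 (-2.33 to -1.28), and at 431, 225 and 139 CPM without the cells with monocyte or class II UMIs. Lyz2 was the gene with the most negative ratio, at 1305 CPM in the low and 46.3 CPM in the high group. Without those cells it stood at 12.05 and 46.3 CPM, so its direction came from the 1 such cell in the low group. S100a4 likewise went from 318 and 128 CPM to 139 and 128 CPM. Both genes are among the 8 counted as lower, and no count without that cell is given.

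**Figure D4:**
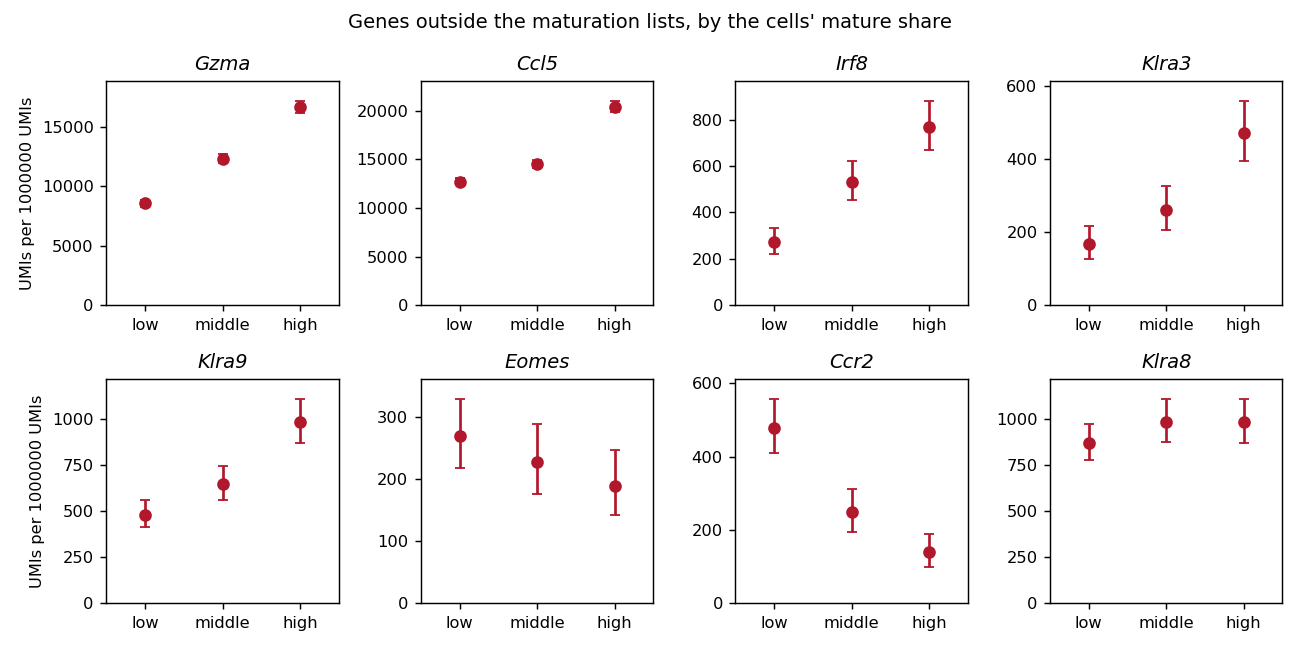
Levels in UMIs per 1000000 UMIs (each y axis from 0) of 8 genes outside the maturation lists in the low, middle and high groups of blood NK cells (x axis, 46, 45 and 45 cells ranked by mature share); points are group sums and bars 95% Poisson intervals. Irf8, Klra3, Klra9 and Gzma step up from low to high, Ccr2 and Eomes step down, and Klra8 differs by 0.18 on the log2 scale.

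The same rule found few NK cells elsewhere. It chose 8 of 1840 filtered bone marrow cells (0.435%, 0.188 to 0.855) and 10 of 4978 filtered tendon cells (0.201%, 0.0964 to 0.369). Blood cells were taken from a gradient and those of the other sites were not, so shares of all cells cannot be compared as tissue content. The site cannot be told apart from its preparation or its library. Ribosomal protein genes took 29.4% of UMIs in the marrow, 20.1% in the blood and 25.7% in the tendon NK cells. The chosen cells were not alike in how firmly they met the rule. The 8 marrow cells had at least 15 receptor UMIs, whereas 8 of the 10 tendon cells had exactly 3, the lowest number the rule allows, 3 had a Cd3 UMI, and only 3 had an Ncr1 UMI. All 10 tendon cells had Gzma and Ccl5. In marrow, 1 cell of 31528 UMIs had 0 Gzma and 0 Eomes UMIs but 21 of Il7r, 27 of Tmem176b and 59 of Mki67, which goes against the label, and most ratios to marrow below are given with and without it.

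Gzma and Ccl5 were higher per UMI in the blood than in the marrow cells. Gzma stood at 12228 CPM in blood and 3197 CPM in marrow, a log2 ratio of 1.94 (1.79 to 2.08), and 1.54 (1.40 to 1.68) without that cell. For Ccl5 the ratios were 2.29 (2.15 to 2.43) and 1.90 (1.76 to 2.05). Summed levels weigh deep cells most, and the marrow cells were not alike. The cell of 24562 UMIs had 104 Gzma and 8 Ccl5 UMIs. The cell of 5988 UMIs had 103 and 55, and that of 9176 UMIs had 17 and 126. A mean of single-cell levels was not computed for the sites. Of the 18 cytolytic genes, 11 had at least 100 UMIs over both. Of these, 6 (Gzma, Gzmb, Prf1, Nkg7, Ctsc and Fasl) were higher in blood by more than 1 on the log2 scale. Without the 1 marrow cell with Il7r, 5 were higher, and 0 were lower with or without it. Ctsw, a granule protease gene, was within that limit at 498 and 405 CPM, 0.30 (-0.11 to 0.74) with the cell and 0.17 without it. Zeb2 stood at 482 and 61.2 CPM, 2.98 (1.99 to 4.20) and 2.58 (1.59 to 3.80) without it. Klrg1 stood at 128 CPM in blood and had 2 UMIs in marrow, 3.06 with and 2.66 (0.78 to 5.72) without it. Itgam had 134 UMIs in blood and 0 in marrow, a ratio of at least 2.65 set by 3 counts over the marrow cells, and at least 2.25 without the 1 cell. Eomes stood at 232 and 252 CPM, a ratio of -0.12 (-0.66 to 0.45), and -0.52 (-1.06 to 0.05) without the 1 cell. Of 1390 genes with at least 100 UMIs over both, 159 (11.4%) were higher in blood by more than 1 on the log2 scale and 63 (4.53%) lower. Without the 1 marrow cell these were 174 and 59 of 1340 genes. Among the 10 highest, each with at most 10 UMIs in marrow, were Hopx, Lyz2, Klra9, Rasgrp2, Klrg1, Ccl3, Zeb2, Khdc1a and Ccl4, and Lyz2 turned from 3.93 to -0.23 without the 2 blood cells with monocyte or class II UMIs. The 10 lowest, several of them known from dividing cells, were Hist1h1b, Top2a, Hist1h2ap, Hist1h4d, Stmn1, Hmgb2, Hmgn2, Nucks1, Tuba1b and Tubb5. These values rested largely on the 1 marrow cell. Without it, Hist1h1b went from -5.50 (-6.43 to -4.68) to 0.57 (-2.14 to 5.98), Hist1h2ap from -3.38 to 2.41 (-0.13 to 7.74) and Hist1h4d from -2.51 to 0.25 (-0.60 to 1.24), so these 3 changed direction. Hmgb2 and Hmgn2 went from -2.26 and -2.05 to -0.70 and -0.60, and Nucks1 to -0.53, all within 1 on the log2 scale. Top2a, a gene of dividing cells, went from -3.87 (-4.49 to -3.28) to -1.39 (-2.43 to -0.21), and Stmn1, Tuba1b and Tubb5 stood at -1.26, -1.30 and -1.18 without the cell.

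Against the tendon cells, 250 of 1307 genes (19.1%) were higher in blood by more than 1 on the log2 scale and 96 (7.35%) lower. Without the deepest tendon cell, described below, these were 255 and 57 of 1259 genes. The ratios highest in blood rested on few tendon UMIs: 8 of the 10 genes had 1 UMI there and Ly6c2 had 0. These 10 were Klf2, Fam65b, Dync1i2, Ly6c2, Tspan32, Cd244, Cdc42se1, Mef2a, Rcsd1 and Atp2a3, and the lowest Cxcl10, Hist1h1b, Hist1h2ap, Junb, Smad7, Xcl1, Vps37b, Nfkbia, Gem and Nasp. Hist1h2ap was found in 2 of the tendon cells and Hist1h1b in 3, with 51 of its 86 UMIs in 1 cell, and Mki67 was found in 2, with 17 UMIs in each. Klf2 stood at 1021 CPM in blood and had 4 UMIs in the 10 tendon cells, a ratio of 4.23 (2.86 to 6.10). After thinning to 2000 UMIs, 80.9% of 136 blood cells and 1 of 9 tendon cells had a Klf2 UMI. The late maturation genes Ly6c2, Cma1, S1pr5 and Klrg1 had 0 UMIs in the tendon cells. Set against 3 counts there, the blood level was higher by at least 3.64, 2.84, 1.87 and 1.64 on the log2 scale, and over 9 cells, without the deepest, by at least 2.98, 2.18, 1.22 and 0.98. Of the immature list, 3 genes had at least 100 UMIs over both. Ctla2a and Xcl1 were lower in blood, Ctla2a with a ratio of -1.74 (-2.04 to -1.43), while Cd7 was higher at 1.36 (-0.03 to 3.26), and 0.71 without the deepest cell. Junb, an immediate early gene, was present in all 10 tendon cells at 2102 CPM against 220 CPM in blood, -3.26 (-3.57 to -2.95). Smad7 and Vps37b were present in all 10 as well.

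The deepest tendon cell, with 26801 of the 73271 UMIs, decided several of these values. It held 143 of 153 Gzmb UMIs, 36 of 39 Ifng UMIs, 86 of 100 Xcl1 UMIs, 1 of 386 Ccl5 UMIs and 100 of the 101 Cxcl10 UMIs. Over all 10 cells Gzmb was lower in blood than in the tendon, with a ratio of -1.45 (-1.71 to -1.19). Over the other 9 it was higher in blood, 1.83 (0.94 to 2.89). Ifng went from -3.60 (-4.27 to -2.93) to -0.55 (-2.20 to 1.78), and Xcl1 from -3.17 (-3.55 to -2.79) to -0.995 (-1.79 to -0.09). Gzma, Klf2 and Junb kept their directions at 1.60, 3.57 and -3.68. The other filtered cells of each library differed in the same direction for Junb, Klf2 and Nfkbia, at 1308 CPM of Junb in the tendon against 359 CPM in blood, and at 210 against 891 CPM of Klf2. Nfkbia, which is also among the 10 lowest, stood at 1238 CPM in the other tendon cells against 182 CPM in the other blood cells. Smad7 and Vps37b stood at 86.0 and 38.9 CPM in the other tendon cells and 76.8 and 34.0 CPM in the other blood cells. The part of digestion and of the site's other cells in these values was not tested.

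**Figure D5:**
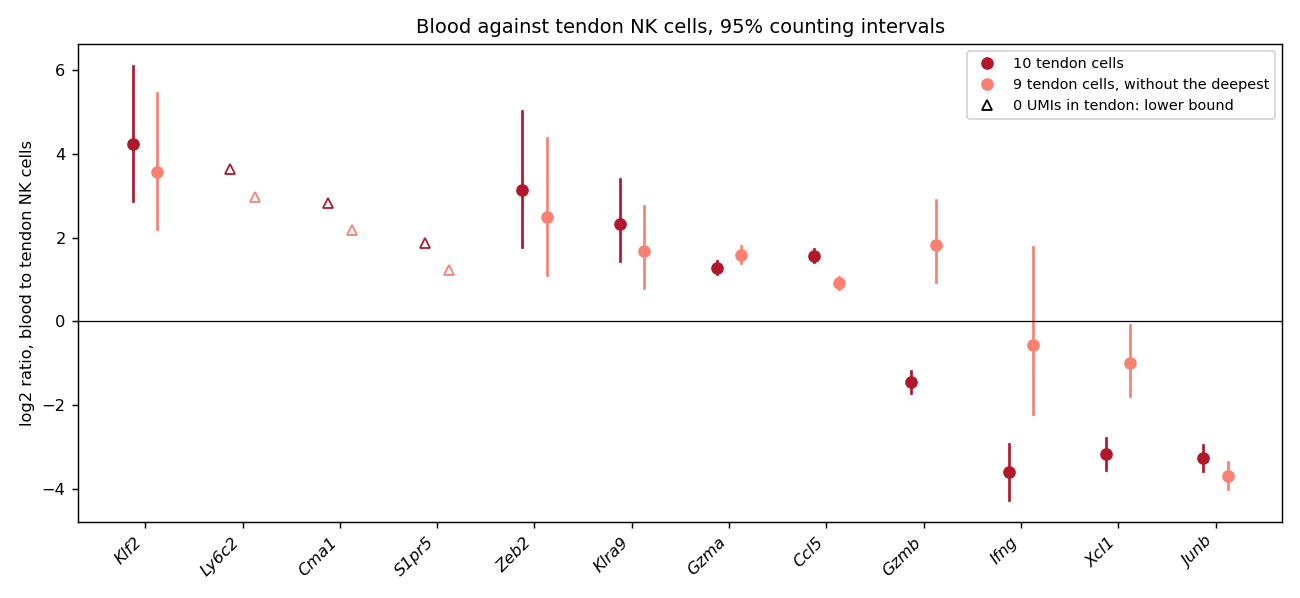
log2 ratio of the level in blood NK cells to that in tendon NK cells for 12 genes, over all 10 tendon cells (red) and without the deepest (salmon), with 95% counting intervals; open triangles are lower bounds where the tendon cells had 0 UMIs. Gzmb changes side of 0 without that cell, and Klf2 and Junb do not.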

How the data were processed

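Libraries were prepared with the 10x Genomics single cell 3′ v3 protocol. The deposited matrices hold UMI counts, not normalized, made by the authors with Cell Ranger 5.0.1 on mm10 per the file headers and labels, with 27998 genes. From these, UMIs were summed over the cells of each type and divided by all their UMIs (CPM), with exact Poisson, Clopper-Pearson and binomial split intervals (95%, Python 3.11.15, scipy 1.17.1), which cover counting error only. A count of 0 was replaced by 3 in a ratio. T cells had at least 2 Cd3 UMIs and no Cd79a (CD8 T cells with at least 1 Cd8a or Cd8b1 UMI), B cells at least 2 Cd79a UMIs and at most 1 Cd3 UMI, and both had fewer than 3 UMIs of the NK receptors, which lowers genes seen with those receptors in them. For some shares, cells were thinned to a common 2000 UMIs; 1 NK, 5 CD8-negative T and 9 B cells were too shallow for that. Doublets were kept, and their removal by Scrublet score (scanpy 1.11.5) was an alternative. Named genes were taken from the lists, with the 10 highest and 10 lowest ratios of the NK to T and site comparisons (minimum 100 UMIs, detection in 10% of the higher group); the maturation genes were named after their values were seen. Of the lists, 7 members were not analysed here, and a few genes are not reported here. The cell filters of the authors are not given in the sources used here. The members and lists were chosen with earlier results of these data known. Gene positions came from GENCODE M21 (GRCm38). The interval code was tested on simulated data.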

Additional observations from a re-analysis of the deposited data

How the results depend on the processing

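The share of NK cells in blood lay between 6.04% and 6.38% under all 8 changes of filter, gate, doublet removal and cells. The 878 genes higher and 335 lower in NK than in T cells became 365 and 595 when scaled without mitochondrial and ribosomal protein genes, 1320 and 523 with a minimum of 50 UMIs, 228 and 119 with 400 UMIs, and 242 and 136 after thinning to 2000 UMIs; the last 3 differ in how many genes were tested (7424, 1759 and 1641). Higher genes were 72.4% of those past the limit in the first scaling and 38.0% in the second. The mature share of 75.8% became 81.2% without Gzmb and Ctla2a, the most abundant gene of each list. A gate minimum of 5 UMIs left 2 tendon cells (0.0402%) in place of 10. Single genes were recomputed, the NK to T ratios also under the other scaling, minima and thinning wherever a value could be had, and the maturation and site ratios under changes of filter, gate, doublet removal, cells or maturation lists alone: 861 of 870 values of 71 NK to T ratios kept their direction, as did 88 of 90 maturation values, 115 of 117 blood to tendon values and 133 of 144 blood to marrow values. Lyz2 turned from 1.80 to -0.059 (NK to T), from -4.82 to 1.98 (maturation) and from 3.93 to -0.61 (blood to marrow) with Scrublet, and to -2.35, 1.98 and -0.23 without the cells with monocyte or class II UMIs. Blood to marrow, Hist1h1b (-5.50), Hist1h2ap (-3.38) and Hist1h4d (-2.51) turned to 0.18, 2.44 and 0.33 with Scrublet, 0.59, 2.31 and 0.19 with the gate on Gzma, Eomes and Prf1, and 0.57, 2.41 and 0.25 without the Il7r marrow cell, and Gzmb from -1.45 (blood to tendon) to 1.83 without the deepest tendon cell. Lck and Clec2d (scaling), Klf2 and Cd247 (NK to T) and Eomes (blood to tendon), all within 1 on the log2 scale, also changed sign under at least 1 alternative. Leaving out those cells, and the cell of a shared barcode, was chosen after seeing the data. No paired analysis was possible because each site has 1 library. Depth limits genes under 100 UMIs and all values of the 8 marrow and 10 tendon cells.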
